A study of Rattus norvegicus and Mus musculus and Macaca mulatta with 84 samples.

Results

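MicroRNAs (miRNAs) were compared in the livers of UCD-T2DM rats after 3 months of diabetes (n = 3) and after 2 weeks of diabetes (n = 6). These are 9 of the 84 samples of the series, and every miRNA entry of their table was a member: 1076 entries, of which 435 had a mean of at least 10 reads per 1000000 miRNA reads (RPM) over the table and were tested. The UCD-T2DM rat becomes obese and insulin resistant and then diabetic, and the series asks how hepatic miRNAs, miR-29 above all, differ between stages and models of diabetes. The labels give the strain, the liver and the duration of diabetes, with no treatment or transgene in either group. Each library's run name carries a rat number of its own, and all were sequenced in lane 3. The labels give no ages, so longer diabetes and greater age cannot be told apart. The 3 prediabetic libraries of the same table entered the fit to help estimate the spread and also counted in the mean that decides which entries were tested; 3 tested entries had a mean under 10 RPM over the 9 libraries compared. The 435 tested entries were 230 canonical forms and 205 forms with an offset in the name, as in miR-27b-3p(+1), taken here as a shifted start because the labels do not describe it, and they belong to 206 mature miRNAs. Where more than 1 locus encodes a mature miRNA it is listed once for each, and the same reads may stand under each of these entries.

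A miRNA is cut from a hairpin transcript, and either arm of the hairpin (5p or 3p) can be loaded into Argonaute, where bases 2 to 8, the seed, pair with target messages and repress them. Hairpins transcribed together form clusters, and mature miRNAs with the same seed form families. In liver, miR-122-5p dominates hepatocyte miRNA, the miR-29 family represses collagen and other matrix genes, miR-21-5p is a stress- and injury-responsive miRNA, and miR-27, miR-107, miR-148/152, miR-185 and miR-378a have reported roles in lipid or energy metabolism.

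The mature sequences of families with members that differed between the groups, and of other leading miRNAs, are shown 5′ to 3′ from RefSeq (GRCr8). The seed is in capitals, because members with the same seed did not all move alike. A RefSeq sequence was matched for 91.0% of the tested entries. The miR-29 family shares 1 seed, and of its members miR-29b-3p had the largest log2 change.
miR-29a-3p: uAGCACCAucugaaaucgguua
miR-29b-3p: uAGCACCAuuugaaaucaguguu
miR-29c-3p: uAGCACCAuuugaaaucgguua
The neighbours miR-221-3p and miR-222-3p share a seed and a cluster.
miR-221-3p: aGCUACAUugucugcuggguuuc
miR-222-3p: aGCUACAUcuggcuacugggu
Both members of the miR-23 family and both of the miR-27 family rose; they come from 2 clusters, 1 with the a forms and 1 with the b forms.
miR-23a-3p: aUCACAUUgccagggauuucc
miR-23b-3p: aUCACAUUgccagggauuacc
miR-27a-3p: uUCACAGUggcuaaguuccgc
miR-27b-3p: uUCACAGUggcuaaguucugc
In the miR-148/152 family the more abundant miR-148a-3p did not pass the test while the other two did.
miR-148a-3p: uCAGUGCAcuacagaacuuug
miR-148b-3p: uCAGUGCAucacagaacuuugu
miR-152-3p: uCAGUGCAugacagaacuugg
In the let-7 family miR-98-5p rose and an entry of let-7c-5p fell, while let-7f-5p was called higher only on the RPM scale as deposited.
let-7c-5p: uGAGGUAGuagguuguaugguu
let-7f-5p: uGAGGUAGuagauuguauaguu
miR-98-5p: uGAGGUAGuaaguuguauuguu
The remaining leaders have seeds of their own among these.
miR-375-3p: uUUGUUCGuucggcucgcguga
miR-21-5p: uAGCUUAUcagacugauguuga
miR-101b-3p: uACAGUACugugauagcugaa
miR-107-3p: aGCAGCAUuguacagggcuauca
miR-92a-3p: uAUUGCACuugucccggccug
miR-181a-5p: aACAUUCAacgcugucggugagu
miR-193a-5p: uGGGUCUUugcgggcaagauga
miR-672-5p: uGAGGUUGguguacuguguguga

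After 3 months of diabetes the liver held more miR-29b-3p, miR-375-3p, miR-221-3p, miR-345 (both arms), miR-21-5p, miR-27b-3p and miR-101b-3p, and less miR-378a (both arms), miR-92a-3p, miR-181a-5p, miR-193a-5p and miR-672-5p, than after 2 weeks. Most changes were modest: 6 entries rose by at least 1 on the log2 scale, from miR-29b-3p, miR-375-3p and miR-221-3p, and no called entry fell by as much. By limma's test, with adjusted p under 0.05 over the 435 entries, 109 were called (25.1%), 87 of them higher (20%) and 22 lower (5.06%) at 3 months. RPM values are shares of a library, so a change in an abundant miRNA moves all the others. The calls were therefore repeated after median-of-ratios rescaling, which gave 51 higher (11.7%) and 57 lower (13.1%), and per 1000000 reads other than miR-122-5p, which gave 52 higher (12%) and 54 lower (12.4%). The median log2 change of all tested entries was 0.17 as deposited and 0.03 on both other scales, a shift of -0.14 and -0.15. A rise or fall below means a call in the same direction on all 3 scales unless another scale is named: 49 entries rose (11.3%), from 26 mature miRNAs, and 22 fell (5.06%), from 14. No mature miRNA had entries called in both directions. The 3 libraries at 3 months all lay above the 6 at 2 weeks in 46 of the 49 that rose, against 21.6% of all tested entries, and all below in 16 of the 22 that fell, against 4.83%. The entries were called on these same libraries, so this describes the calls and is no separate test of them.

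**Figure D1:**
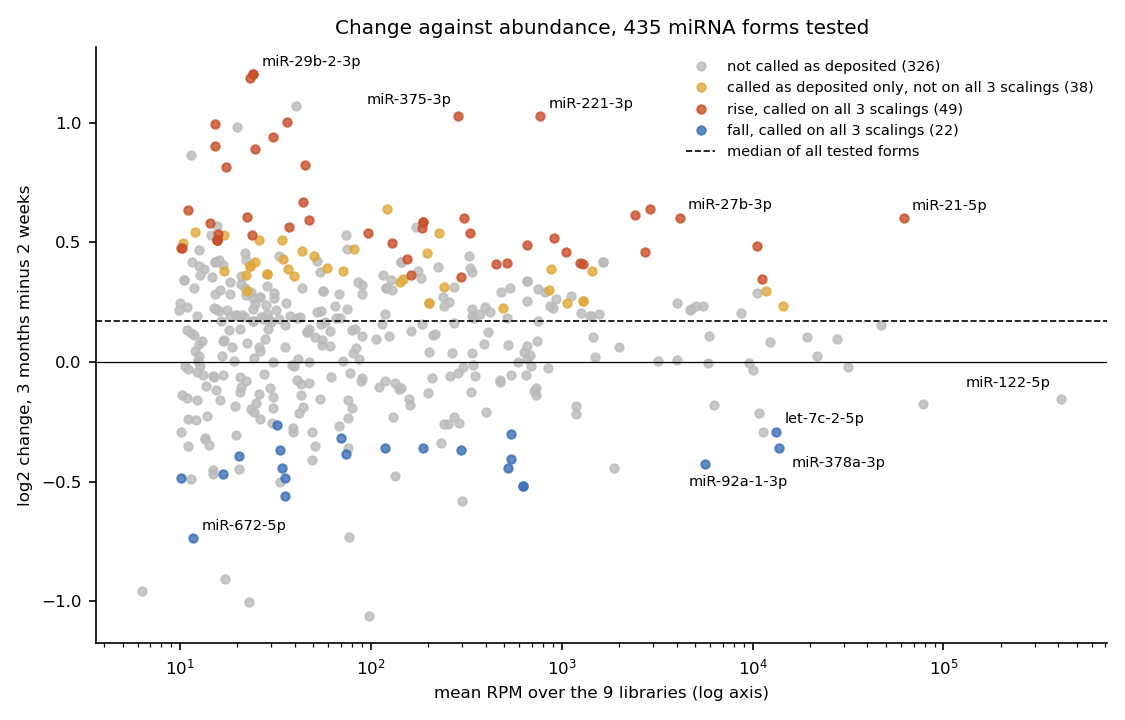
Each point is 1 of the 435 tested miRNA entries, with its mean RPM over the 9 libraries on a log axis and its log2 change (3 months minus 2 weeks, deposited scale). Red marks the 49 rises and blue the 22 falls called on all 3 scales, yellow the 38 called as deposited but not on all 3, and the dashed line the median of 0.17; the largest rises lie among entries of low to middling abundance.

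Leaving out any 1 of the 3-month libraries lowered the calls as deposited to 51, 50 and 52, and the rises on all 3 scales to 31, 27 and 23. Of the 71 entries called on all 3 scales (16.3%), 31 kept the deposited-scale call in every omission of 1 library, 27 of them rises and 4 falls. Within a group, libraries correlated at 0.983 or more on the log2 scale. Of the 1076 entries 182 to 302 were listed at 0 at 2 weeks and 153 to 215 at 3 months.

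miR-122-5p, the defining hepatocyte miRNA, was the most abundant entry in every library, the marker that the liver label calls for. In bulk tissue, fewer cells of a type and less of its RNA per cell cannot be told apart. Over all of its forms its share at 2 weeks was 52.8%, 50.2%, 55.0%, 46.8%, 55.1% and 46.3% in replicates 1 to 6, and at 3 months it was 46.9%, 45.8% and 44.1%. The mean share was 51.0% ± 3.89 (SD, n = 6) at 2 weeks and 45.6% ± 1.42 (n = 3) at 3 months, a difference of -5.42 percentage points (two-sided exact permutation p = 0.0595, where 84 splits allow no p under 0.0119). Replicates 4 and 6 at 2 weeks lay within the range of the 3-month libraries, so the groups overlapped. The canonical entry alone was 428137 ± 31840 RPM against 383452 ± 10670 RPM (log2 -0.16, SE 0.06, limma adjusted p = 0.0797). Across the 28 tested forms of the hepatocyte-enriched list, 1 was called higher as deposited, miR-194-2-5p(-1) (log2 0.44), against 20% of all tested entries. None rose on all 3 scales, against 11.3%, and none was called lower as deposited, against 5.06%. miR-192-5p, also rich in hepatocytes, was 27177 ± 4094 RPM and 28849 ± 2420 RPM, with overlapping groups.

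**Figure D2:**
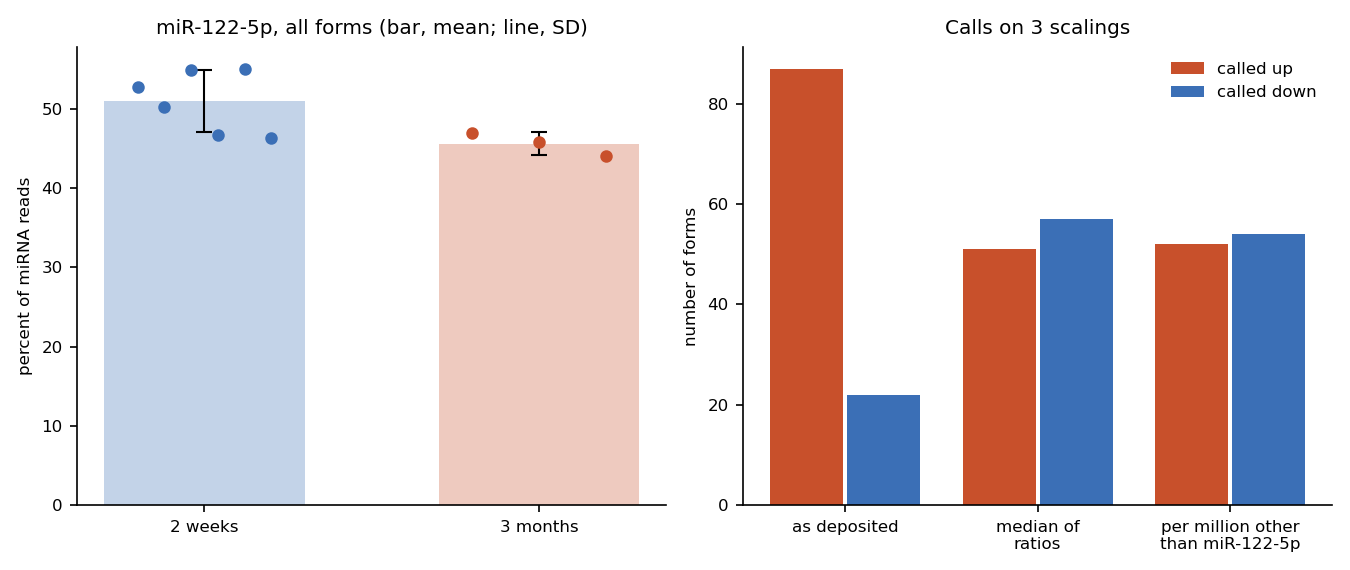
Left, the share of miRNA reads held by miR-122-5p in each library (points), with group means (bars from 0) and SD (lines); 2 of the 6 libraries at 2 weeks reach down among those at 3 months. Right, the number of entries called higher and lower on each scale; 87 against 22 as deposited becomes 51 against 57 and 52 against 54.

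Within the miR-29 family the largest log2 change was that of its rarest 3p member, miR-29b-3p, while miR-29a-3p held most of the difference in RPM. At 2 weeks the miR-29b-2-3p entry ranged from 12.3 to 22.2 RPM with a median of 15.98, and at 3 months it was 38.7, 36.4 and 42.1 RPM. Every 3-month library was thus well above every 2-week library, and the ratio of means was 2.34 (log2 1.20, SE 0.19, limma adjusted p = 0.00154), the largest among the calls. The entries of the other two loci gave 1.19 and 1.20, and the change after median-of-ratios rescaling was 1.06. The far more abundant miR-29a-3p ranged from 3909 to 4952 RPM at 2 weeks with a median of 4470, and was 5308, 4967 and 5241.4 RPM at 3 months (log2 0.22, SE 0.10, adjusted p = 0.122). miR-29c-3p (entry miR-29c-1-3p) went from 609 ± 92.2 RPM to 763 ± 25.1 RPM (log2 0.34, adjusted p = 0.0706). Neither overlapped between groups as deposited, and neither passed the test. The summed 3p family, averaged over loci, was 5093 ± 512 RPM at 2 weeks (4492 to 5668) and 5974 ± 201 RPM at 3 months (5749 to 6138), a log2 difference of 0.23 (two-sided exact permutation p = 0.0238, adjusted p = 0.0476 over the 2 single values tested). That difference was 0.08 on both other scales (exact permutation p = 0.0595 and 0.179), so its call rests on the deposited scale. It was also lost in each of the 9 omissions of 1 library (exact permutation p adjusted over the same 2 values from 0.0536 to 0.214). Of the 881 RPM by which the sum was higher at 3 months, miR-29a-3p made up 705 RPM, miR-29c-3p 154 RPM and miR-29b-3p 22.02 RPM. miR-29b-3p is made from the same 2 clusters as miR-29a and miR-29c, and the difference between these members was not tested.

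Outside the miR-29 family the largest rises were those of miR-375-3p and miR-221-3p, both at 1.03 on the log2 scale. miR-375-3p is known from pancreatic islets and neuroendocrine cells and also present in liver. At 2 weeks it ranged from 172 to 238 RPM with a median of 220, and at 3 months it was 480, 426 and 392 RPM. The lowest 3-month library was above the highest 2-week library, with a ratio of means of 2.04 (log2 1.03, SE 0.13, adjusted p = 0.00123; 0.88 after rescaling). Its forms shifted by +1 and -1 rose by 0.94 and 1.00. Of the pancreas and neuroendocrine list, 2 of 7 members reached the test, and the other, miR-7a, showed no such rise: miR-7a-1-5p was 357 ± 29.2 RPM and 343 ± 15.8 RPM. The islet and acinar members miR-9a-5p, miR-216b-5p and miR-217-5p were in the table under the 10 RPM minimum.

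miR-345, a hairpin of low abundance, gave more of both arms: miR-345-5p went from a range of 9.12 to 15.1 RPM (median 11.4) to 27.2, 21.8 and 18.9 RPM (log2 0.90, SE 0.17, adjusted p = 0.00365), and miR-345-3p from 13.8 ± 2.49 RPM to 24.8 ± 2.87 RPM (log2 0.82, adjusted p = 0.00431). The groups did not overlap in either arm.

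Of the miRNAs tied to proliferation, miR-221-3p, which represses the cell-cycle inhibitor p27, stood out. It ranged from 476 to 667 RPM at 2 weeks with a median of 565, and was 1003, 1708 and 859 RPM at 3 months. Replicate 2 at 3 months was far above the other two, and still the lowest of them exceeded every 2-week library (ratio of means 2.12, log2 1.03, SE 0.19, adjusted p = 0.00375; adjusted p at most 0.016 in any omission of 1 library). Its neighbour miR-222-3p, at 52.0 to 79.0 RPM at 2 weeks (median 64.1) and 83.2, 114 and 81.8 RPM at 3 months, was also highest in replicate 2 and did not overlap, but did not pass the test (log2 0.53, SE 0.20, adjusted p = 0.0624). Of 34 tested forms on the proliferation list, 8 rose and 3 fell on all 3 scales, against 11.3% and 5.06% of all tested entries; the rises were forms of miR-221-3p, miR-21-5p and miR-17-5p, and the falls were forms of miR-92a-3p. The list's median log2 change was 0.26, against 0.17 over all tested entries.

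**Figure D3:**
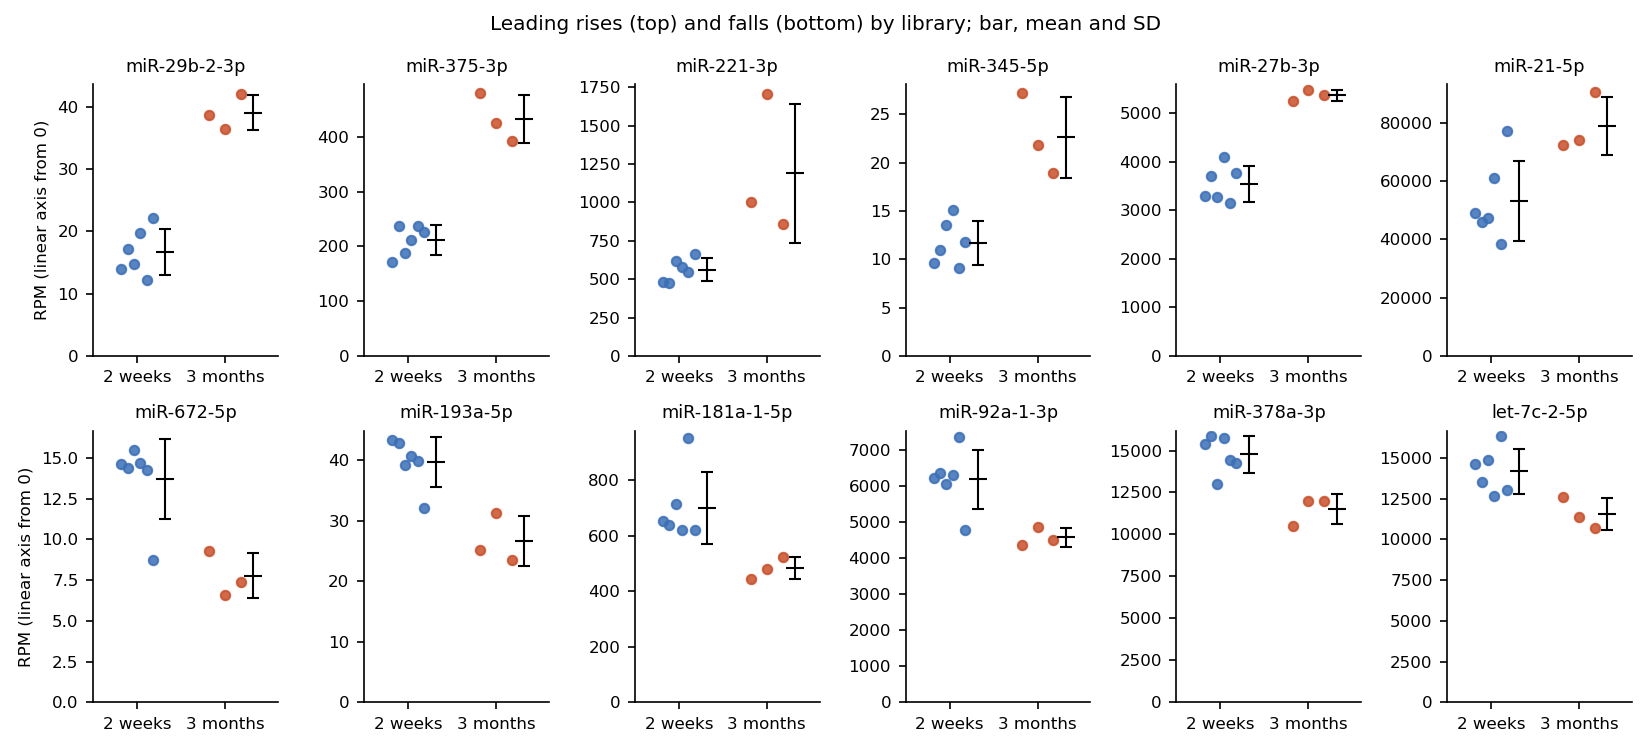
RPM of 6 leading rises (top) and 6 leading falls (bottom) in each of the 6 libraries at 2 weeks (blue) and the 3 at 3 months (red), on linear axes from 0, with group mean and SD beside the points. The groups are apart in 5 of the 6 upper panels, with miR-21-5p overlapping, and miR-672-5p and miR-92a-1-3p overlap in the lower row.

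miR-21-5p was the most abundant of the miRNAs that rose. It ranged from 38546 to 77293 RPM at 2 weeks with a median of 48210, and was 72370, 74084 and 90634 RPM at 3 months. A single 2-week library lay within the 3-month range and the other 5 below it (53206 ± 13852 against 79029 ± 10086 RPM, log2 0.60, SE 0.17, adjusted p = 0.0226). The call was lost in 3 of the 9 omissions of 1 library, with adjusted p up to 0.107. Its shifted forms moved with it: miR-21-5p(+1) went from 2478 ± 581 RPM to 3785 ± 375 RPM (log2 0.64), and the rare (+4) and (+5) forms rose by 0.82 and 0.89, each with all 3-month libraries on top. The other arm, miR-21-3p, was 47.4 ± 15.6 RPM and 48.0 ± 20.3 RPM. On the inflammation list, whose 13 tested forms held 5 rises on all 3 scales (11.3% of all tested entries rose), every rise was a form of miR-21-5p. miR-146a-5p, induced by NF-kB, was 1431 ± 273 RPM and 1526 ± 173 RPM (log2 0.11), miR-155-5p, of activated macrophages and lymphocytes, was 80.0 ± 15.5 RPM and 67.7 ± 13.1 RPM (log2 -0.23), and neither passed the test.

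The 2 miR-23/27/24 clusters rose together in their miR-23 and miR-27 members. miR-27b-3p, which targets several lipid-metabolism messages, ranged from 3138 to 4089 RPM at 2 weeks (median 3495) and was 5252, 5468 and 5360 RPM at 3 months. Its 3-month libraries were tightly grouped and all above the 2-week range (ratio 1.51, log2 0.60, SE 0.09, adjusted p = 0.00123), and the call held in every omission of 1 library. miR-27a-3p rose from 114 ± 18.9 RPM to 159 ± 12.02 RPM (log2 0.50, adjusted p = 0.0237). miR-23b-3p rose from 580 ± 82.4 RPM to 807 ± 43.1 RPM (log2 0.49, adjusted p = 0.00828) and miR-23a-3p from 161 ± 25.2 RPM to 236 ± 21.1 RPM (log2 0.56, adjusted p = 0.0102). miR-24-3p, which both clusters encode, was called as deposited (log2 0.25, adjusted p = 0.0237) and not on the other scales, where its change was 0.10 after median-of-ratios rescaling. The star arm miR-27b-5p was 18.7 ± 5.30 RPM and 18.9 ± 0.438 RPM, without the rise of its partner.

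In the X-linked cluster of miR-322, miR-503, miR-351, miR-542 and miR-450, whose miR-322-5p belongs to the miR-15/16 seed family, 8 of 12 tested entries were called higher as deposited and 5 on all 3 scales, against 20% and 11.3% of all tested entries; none fell, against 5.06%. miR-322-5p went from 161 ± 20.7 RPM (144.9 to 198, median 155) to 228, 242 and 249 RPM (log2 0.58, SE 0.10, adjusted p = 0.00307), and miR-542-3p from 13.7 ± 2.63 RPM to 19.7 ± 1.31 RPM (log2 0.51, adjusted p = 0.0225), both with groups apart. The 5 rises are entries of only these 2 mature miRNAs, with the same values at their loci. For miR-542-3p the gap was narrow, with 18.42 RPM the highest at 2 weeks and 18.44 RPM the lowest at 3 months. Its limma adjusted p was 0.0486 and 0.0452 on the other scales. The deposited-scale call was lost in 3 of the 9 omissions of 1 library. miR-450a-5p (log2 0.45) and miR-322-3p (log2 0.37) were called as deposited only, miR-351-5p was at 0.27 without a call, and miR-450b-3p was at 12.5 ± 1.98 and 12.4 ± 1.38 RPM.

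In the miR-17-92 cluster, an oncogenic polycistron on chromosome 15, 1 member fell and none rose on all 3 scales. miR-92a-1-3p, its most abundant product, ranged from 4797 to 7379 RPM at 2 weeks with a median of 6266, and was 4362, 4856 and 4516 RPM at 3 months. A single 2-week library lay among those at 3 months (log2 -0.42, SE 0.11, adjusted p = 0.0175). Of the others, miR-17-1-5p, miR-18a-5p and miR-20a-5p were called higher as deposited only (log2 0.31, 0.50 and 0.23), and miR-19a-3p and miR-19b-1-3p were not called (0.34 and 0.23). RefSeq places a related cluster on chromosome X, with hairpins that also give miR-17-5p and miR-92a-3p. Its entry miR-17-2-5p rose, from 148 ± 15.4 RPM to 190 ± 9.82 RPM (log2 0.36, adjusted p = 0.0164), although the mature sequence is that of miR-17-1-5p. Its entry miR-92a-2-3p was at 121 and 114 RPM (log2 -0.08) and did not pass the test; the average of miR-92a-3p over both loci gave -0.42 (adjusted p = 0.0195).

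**Figure D4:**
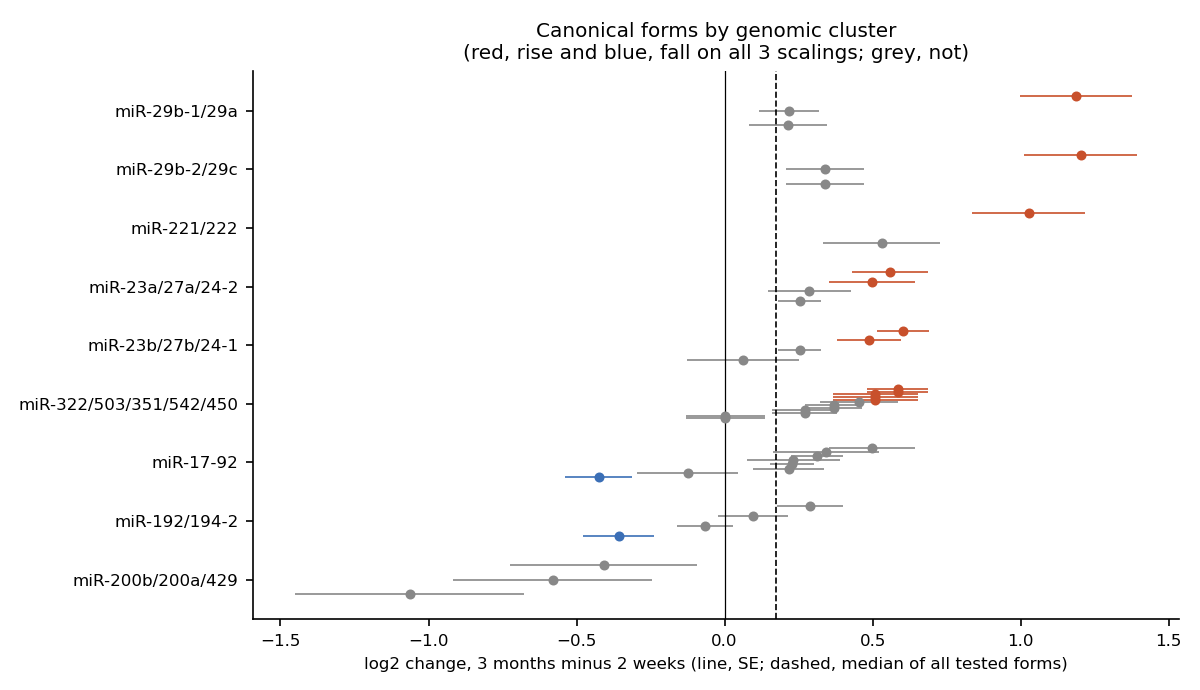
Log2 change (3 months minus 2 weeks, deposited scale) of each canonical entry in 9 genomic clusters, with its SE; red rose and blue fell on all 3 scales, and the dashed line is the median of all tested entries. The miR-23/27/24 and miR-322 clusters lie at or right of 0, and miR-17-92 holds 1 blue point and no red one.

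Among miRNAs with reported roles in liver metabolism, 57 forms of 19 mature miRNAs were tested. On all 3 scales 10 forms of 6 miRNAs rose and 7 forms of 4 fell, against 11.3% and 5.06% of all tested entries. The median log2 change of the list was 0.01, against 0.17 over all tested entries, and -0.14 against 0.03 after median-of-ratios rescaling. Besides miR-27a and miR-27b, the rises were miR-107-3p, miR-152-3p, miR-148b-3p, miR-185-5p and their forms, and the falls were miR-378a-3p, miR-378a-5p, miR-378b and miR-181a-5p. miR-107-3p, which targets caveolin-1, ranged from 805 to 1034 RPM at 2 weeks (median 936) and was 1194, 1463 and 1198 RPM at 3 months (log2 0.46, SE 0.09, adjusted p = 0.00636). The groups were apart. Its seed partner miR-103-3p, of higher abundance, went from 1341 ± 94.4 RPM to 1532 ± 108 RPM (entry miR-103-1-3p, log2 0.19, adjusted p = 0.0789).

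In the miR-148/152 family, of which miR-148a is reported to repress the LDL receptor and ABCA1, miR-152-3p ranged from 721 to 942 RPM at 2 weeks (median 767) and was 1155, 974 and 1283 RPM at 3 months (log2 0.52, SE 0.10, adjusted p = 0.00472), with every 3-month library above. miR-148b-3p went from 469 ± 68.6 RPM to 621 ± 50.9 RPM with overlapping groups (log2 0.41, adjusted p = 0.0225), and its partner arm miR-148b-5p from 9.23 ± 2.19 RPM to 14.7 ± 1.82 RPM (log2 0.63). miR-148a-3p, an abundant hepatocyte miRNA of the same seed, was 18941 ± 3670 RPM and 20095 ± 1924 RPM (log2 0.10, adjusted p = 0.584). miR-185-5p, reported to target the scavenger receptor SR-BI, rose from 40.4 ± 4.27 RPM to 61.2 ± 0.309 RPM (log2 0.59, adjusted p = 0.00773). miR-33-5p, which lies in Srebf2 and represses ABCA1, was 26.5 ± 5.04 RPM and 32.04 ± 10.8 RPM and was not called (log2 0.24, adjusted p = 0.367). miR-34a-5p, a p53 target that represses Sirt1, was 2059 ± 652 RPM and 1491 ± 439 RPM (log2 -0.44, adjusted p = 0.246).

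miR-101b-3p, whose seed targets Ezh2, ranged from 7026 to 10771 RPM at 2 weeks (median 9480) and was 14386, 11717 and 12828 RPM at 3 months (log2 0.49, SE 0.11, adjusted p = 0.0109), and its (-1) form went from 2066 ± 289 RPM to 3138 ± 194.5 RPM (log2 0.61, adjusted p = 0.00341). Both were apart between groups, while miR-101a-3p with the same seed was 1055 ± 238 RPM and 1256 ± 158 RPM (log2 0.28, adjusted p = 0.23). miR-30a-5p rose from 10304 ± 1224 RPM to 13048 ± 533 RPM (log2 0.35, adjusted p = 0.0185). miR-210-3p, induced by hypoxia, went from 196 ± 27.02 RPM to 350, 279 and 233 RPM (log2 0.54, adjusted p = 0.0185), a call that the other scales did not keep (adjusted p = 0.0789 and 0.103).

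miR-378a, encoded within Ppargc1b and tied to mitochondrial metabolism, fell in both arms. miR-378a-3p ranged from 13001 to 15877 RPM at 2 weeks with a median of 14917, and was 10480, 12017 and 12018 RPM at 3 months. All 3-month libraries were below all 2-week libraries (log2 -0.36, SE 0.08, adjusted p = 0.00766), and the call held in every omission of 1 library. miR-378a-5p went from 574 ± 53.4 RPM to 420 ± 23.4 RPM (log2 -0.44, adjusted p = 0.00773), and the related miR-378b from 591 ± 40.5 RPM to 447 ± 38.9 RPM (log2 -0.40, adjusted p = 0.00636); both kept the call in every omission too, and miR-378b may share reads with miR-378a-3p. miR-181a-5p, which is reported to target Sirt1, ranged from 619 to 951 RPM at 2 weeks (median 646) and was 444, 481 and 523 RPM at 3 months (entry miR-181a-1-5p, log2 -0.52, SE 0.13, adjusted p = 0.0164). The groups were apart, and replicate 5 at 2 weeks was far above its fellows. Its seed partners miR-181b-1-5p, miR-181c-5p and miR-181d-5p changed by -0.19, -0.21 and -0.28 and did not pass the test.

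The largest called fall was that of miR-672-5p, from 13.7 ± 2.46 RPM (8.75 to 15.5, median 14.5) to 9.29, 6.61 and 7.37 RPM (ratio 0.566, log2 -0.74, SE 0.18, adjusted p = 0.0148); a single 2-week library overlapped the 3-month range. miR-193a-5p fell from 39.7 ± 4.08 RPM to 25.3, 31.3 and 23.5 RPM (log2 -0.56, SE 0.12, adjusted p = 0.00659), below every 2-week library. miR-140-3p fell from 322 ± 23.8 RPM to 249 ± 19.0 RPM (log2 -0.37, adjusted p = 0.0119), and its more abundant (+1) form from 578 ± 35.1 RPM to 469 ± 35.3 RPM (log2 -0.30, adjusted p = 0.0185). miR-194-2-3p fell from 129 ± 19.0 RPM to 99.5 ± 7.46 RPM (log2 -0.36, adjusted p = 0.0407), with overlap and with the call lost in 6 of the 9 omissions. miR-99a-3p, miR-195-3p and miR-139-3p, all under 50 RPM, fell by 0.49, 0.47 and 0.39 on the log2 scale.

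Both arms could be compared, averaged over loci, for 51 hairpins, of which 17 had an arm with at least 1 entry that rose or fell on all 3 scales; for let-7c this was 1 of 2 entries, and the average was not called. Both arms did in 4 of them: miR-345, miR-126a and miR-148b, which rose, and miR-378a, which fell. In 6 of the 17 the arms had opposite signs on the deposited scale, and which hairpins these were depended on the scale. After median-of-ratios rescaling miR-139-5p, miR-140-5p and miR-195-5p were at -0.02, -0.11 and -0.11, the sign of their 3p arms. There miR-21-3p, miR-27b-5p and miR-30a-3p were at -0.15, -0.08 and -0.12, opposite to their partners that rose. Opposite signs on the deposited scale were also common among the other hairpins, such as miR-122 (5p -0.16, 3p 0.20) and miR-1843a (5p 0.32, 3p -0.29). They were thus not particular to hairpins with a called arm. Several falls were of the arm with fewer reads beside a partner that was not called: miR-194-2-3p (-0.36) beside miR-194-2-5p (0.29), miR-139-3p (-0.39) beside miR-139-5p (0.13), miR-195-3p (-0.47) beside miR-195-5p (0.04), and miR-99a-3p (-0.49) beside miR-99a-5p (-0.03). For miR-193a the 5p arm fell (-0.56) and the 3p arm, at about 10 RPM, did not pass the test (0.25). The difference between the arms of a hairpin was not tested.

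Forms of 1 mature miRNA with a call mostly had the same sign. Of 37 mature miRNAs with several tested forms and at least 1 entry called as deposited, 36 had all entries on 1 side of 0, and in 12 every entry was called. The exception was let-7c-5p, whose entries ran from -0.35 to 0.12. These 37 were chosen for a call, which lies away from 0, and entries of several loci may repeat reads. Their agreement in sign was thus partly set by that choice. Some miRNAs without a call had entries on both sides of 0, such as miR-122-5p, from -0.18 to 0.11. Over the 101 miRNAs with a canonical and a shifted form, the median spread of the log2 change across entries was 0.11.

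miRNAs of other liver cell types were followed as lists. The endothelial miR-126a rose in both arms: miR-126a-3p ranged from 1022 to 1301 RPM at 2 weeks (median 1166) and was 1560, 1472 and 1594 RPM at 3 months (log2 0.41, SE 0.08, adjusted p = 0.00636), and miR-126a-5p went from 2433 ± 384 RPM to 3312 ± 187 RPM (log2 0.46, adjusted p = 0.0175). All 6 of its tested forms were called higher as deposited and 4 on all 3 scales, against 20% and 11.3% of all tested entries, and the list's summed level was 2933 to 4102 RPM at 2 weeks and 4687 to 5097 RPM at 3 months, without overlap. Of 11 tested forms on the stellate and fibroblast list none was called, against 25.1% of all tested entries. Their median log2 change was 0.22, against 0.17 over all. After median-of-ratios rescaling the list's median was 0.07, against 0.03 over all. The abundant miR-143-3p was 5750 ± 932 RPM and 6161 ± 618 RPM, and its sign turned to -0.04 on both other scales. miR-145-5p, miR-214-3p, miR-199a-5p and miR-199a-3p were at 0.56, 0.42, 0.29 and 0.21, and at 0.41, 0.28, 0.15 and 0.06 after median-of-ratios rescaling. Of 14 forms on the blood cell list none was called either, and the median was again 0.22, against 0.17 over all. Their summed level was 328 to 568 RPM and 374 to 458 RPM. Erythroid miR-451-5p was 29.8 ± 9.36 RPM and 39.8 ± 7.55 RPM.

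The 10 tested forms of the epithelial and bile duct list had a median log2 change of -0.29, against 0.17 over all tested entries. None was called as deposited, where 20% of all tested entries were called higher and 5.06% lower. miR-200b-3p ranged from 48.9 to 154 RPM at 2 weeks (median 143) and was 40.4, 39.9 and 84.2 RPM at 3 months (log2 -1.06, SE 0.39, adjusted p = 0.058); it was called on the other scales (adjusted p = 0.0412 and 0.0434). At 3 months 2 libraries were below all of those at 2 weeks and the third was among them. Its cluster partners miR-200a-3p and miR-429 were at -0.58 and -0.41 and were not called on any scale, while miR-141-3p and miR-200c-3p of the other miR-200 cluster were at 0.86 and 0.47, also without a call. miR-31a-5p, at 6560 ± 756 RPM and 5768 ± 324 RPM (log2 -0.18), was called lower only after rescaling (adjusted p = 0.00344 and 0.00473). The summed list was 6079 to 8493 RPM at 2 weeks and 5739 to 6519 RPM at 3 months.

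The let-7 family, which restrains growth and insulin signalling, had a median log2 change of 0.02 over 36 tested forms, against 0.17 over all tested entries. After median-of-ratios rescaling its median was -0.13, against 0.03 over all. The family's summed level was 65137 to 76519 RPM at 2 weeks and 65052 to 70484 RPM at 3 months. Within the family miR-98-5p rose, from 406 ± 38.6 RPM (380 to 475, median 385) to 516, 523 and 577 RPM (log2 0.41, SE 0.09, adjusted p = 0.00697). The entry let-7c-2-5p fell, from 12654 to 16357 RPM (median 14070) to 12586, 11396 and 10682 RPM (log2 -0.29, SE 0.09, adjusted p = 0.0324). The other let-7c entry, let-7c-1-5p, which has the same mature sequence, was at -0.21 and not called, and the mean over both loci was at -0.26 with an adjusted p of 0.0527, so that fall depends on the entry used. let-7f-1-5p and let-7f-2-5p were called higher as deposited (log2 0.30 and 0.23) and on neither other scale. Of 24 seeds that at least 2 tested mature miRNAs share, let-7 was the 1 with members called in both directions on all 3 scales. Its fall there was that of the entry let-7c-2-5p alone. Of the 24, 3 seeds had at least 2 members that rose: miR-23, miR-27 and miR-148/152.

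Base composition moved with the change. Over 178 mature miRNAs the GC content of the mature sequence and the log2 change had a Pearson r of -0.25 and a Spearman rho of -0.29 across miRNAs of the same 9 libraries, which are not independent. The median log2 change was 0.29 below 40% GC (41 miRNAs), 0.20 from 40% to under 50% (73) and 0.01 from 50% up (64). On all 3 scales 6 rose and 0 fell in the lowest class, 13 rose and 3 fell in the middle one, and 5 rose and 9 fell in the highest. The slope of log2 RPM on GC content, per 10 percentage points and relative to the mean library, was 0.094, 0.069, 0.057, -0.045, 0.18 and -0.093 in 2-week replicates 1 to 6 and -0.060, -0.039 and -0.083 at 3 months, so replicates 4 and 6 at 2 weeks, which also had the lowest miR-122-5p shares of their group, had slopes like the 3-month libraries. After each library's slope was removed, 59 of the 69 entries that rose or fell and had a GC value were still called in the same direction. miR-29b-3p stood at 1.10 after that step, miR-375-3p at 1.13, miR-221-3p at 1.06 and miR-378a-3p at -0.28, all called. The calls lost include miR-140-3p (-0.24, adjusted p = 0.0992), miR-139-3p (-0.15, adjusted p = 0.321) and miR-194-2-3p (-0.23, adjusted p = 0.0751). With median-of-ratios rescaling joined to slope removal, 64 of the 69 were called in the same direction. Those not called then include miR-98-5p (0.12, limma adjusted p = 0.276) and miR-542-3p (0.23, limma adjusted p = 0.122).

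**Figure D5:**
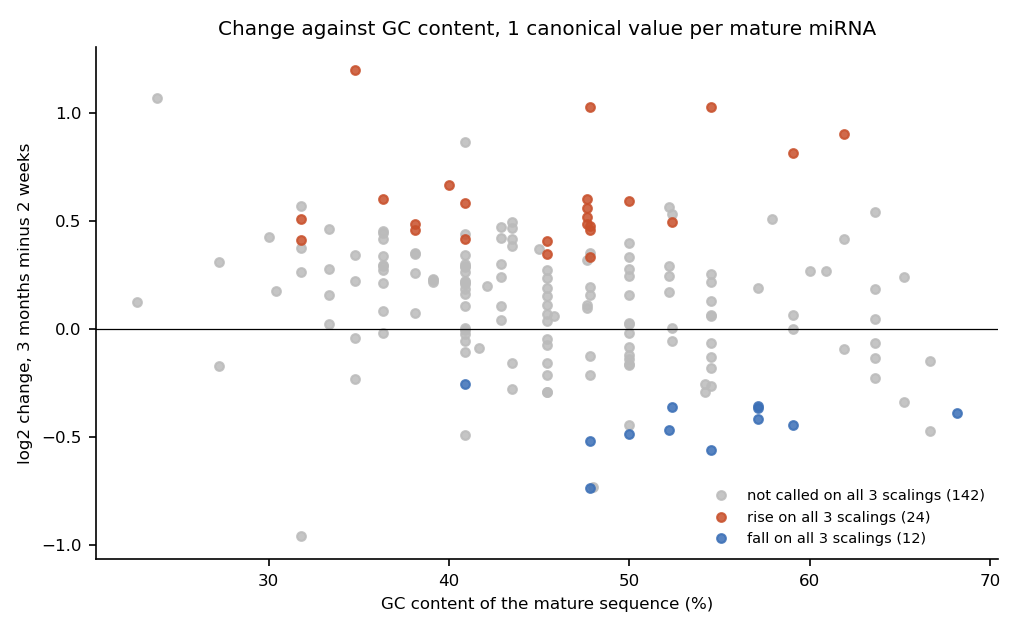
Log2 change (3 months minus 2 weeks, deposited scale) against the GC content of the mature sequence, 1 point per mature miRNA (178). Blue points, the falls, lie mostly at 50% GC or more, and red points, the rises, spread from 31.8% to 61.9%.

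Host genes gave a second readout, since miRNAs within introns can be transcribed with the gene around them. Polyadenylated RNA of the same rat model was compared between 2 weeks (n = 4) and 3 months (n = 5), with 3 animals in both comparisons, as normalised counts. Of 13640 genes 320 were called (2.35%). Of the 11 tested host genes whose miRNA was called as deposited, 0 were called by limma and 0 were called under any alternative. Of these 11, 2 had an unadjusted limma p under 0.05, against 5 of all 31 tested hosts. Egfl7, an endothelial gene that holds miR-126a, went from 304 ± 75.9 (n = 4) to 419 ± 84.0 normalised counts (n = 5, log2 0.46, limma adjusted p = 0.22), next to 0.41 and 0.46 for its miRNA's arms. Tango2, which holds miR-185, went from 217 ± 22.4 to 295 ± 44.6 (log2 0.43, limma adjusted p = 0.236). Ppargc1b, the host of miR-378a, was 81.0 ± 51.5 and 62.5 ± 29.2 (log2 -0.29, adjusted p = 0.777), a spread too wide to show a change of the size its miRNA had. Rcl1, the host of miR-101b, was level at 6178 ± 670 and 6235 ± 693 (log2 0.01) beside a rise of 0.49. Pank1, the pantothenate kinase gene that holds miR-107, went the other way, from 5456 ± 929 to 4572 ± 751 (log2 -0.26, limma adjusted p = 0.284). In 8 of the 11 pairs the host and the miRNA had the same sign, and Pank1, Pde2a (miR-139) and Ska2 (miR-301a) were the others. The 8 take in hosts near 0, Rcl1 at 0.01 and Wwp2 (miR-140) at -0.06. The count was not made for the other tested hosts, so no share stands beside it.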

How the data were processed

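Small RNA libraries were made with the TriLink CleanTag kit and RNA libraries with a TruSeq polyA kit, per the labels' protocols. The authors deposited miRNA values as RPM, which sum to 1000000 in every library; whole reads could not be recovered from the low values, so depth is unknown and no count model was run. The authors deposited RNA as normalised counts, a signal that is not whole numbers. The submitters' processing notes name STAR, Salmon, DESeq2 and the builds rn6, mm9, mm10 and hg19, with no version or role. Groups came from the sample titles.

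limma 3.58.1 in R 4.3.3, with a variance trend and no block, fitted log2(value + 1), which understates the change of low entries, in all 12 UCD-T2DM small RNA libraries (3 groups) or all 20 RNA libraries, for features with a mean of at least 10. P-values are two-sided, Benjamini-Hochberg adjusted over all features tested and called under 0.05. The code was tested on simulated data. The GC correction and the alternatives of the miR-29 total were chosen after seeing the data.

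Named miRNAs were the 10 largest called rises and falls with a mean of at least 50 RPM, up to 3 called members per direction of 11 lists (or 2 as values), members of clusters with at least 2 called mature miRNAs, and hosts of called miRNAs. Shifted forms, seed partners, other arms, rarer calls and miRNAs called only after rescaling were added after their values were seen. The members and lists were chosen with earlier results of these data known.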

Additional observations from a re-analysis of the deposited data

Results flagged for a closer look

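Among the values given above, 85 groups of 4 to 6 libraries were checked for a library far from its fellows, and 2 were found, while chance alone would give about 1 in 20. miR-181a-1-5p in 2-week replicate 5 was 951 RPM, with the other 5 libraries between 619 and 714 RPM. miR-450a-5p in 2-week replicate 6 was 239 RPM, with the others between 152 and 181.03 RPM. miR-181a-1-5p fell and miR-450a-5p was called higher as deposited in the comparison.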

How the results depend on the processing

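The count of 109 calls stayed within 1.5 times under the other pseudocounts (0.5 and 10), without a filter, with only the 2 groups in the fit, averaged over loci and with the GC slope removed. So did the 87 higher and 22 lower calls taken apart, except the lower calls with the GC slope removed. A minimum of 50 RPM gave 60 calls (47 higher, 13 lower), from fewer entries tested. The calls higher and lower were 51 and 57 after median-of-ratios rescaling, 52 and 54 per 1000000 reads other than miR-122-5p, and 54 lower when rescaling was joined with GC slope removal. The calls lower fell to 11 with the GC slope removed alone. The miR-29 total differed by 0.084 after median-of-ratios rescaling and by 0.080 per 1000000 reads other than miR-122-5p, without the call. The cause of these shifts was not tested.

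With the replicate number as a block there were 169 calls, 139 of them higher; same-numbered libraries are from different rats and their deviations correlated at -0.16, -0.08 and -0.38, so the numbers do not pair the samples. In RNA the calls over all genes went from 320 to 48 without a filter and to 195 with the replicate block.

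Without 1 library the calls ranged from 50 to 150, those higher from 41 to 114 and those lower from 7 to 36; rises on all 3 scales ranged from 23 to 57 and falls from 7 to 36. The lowest counts came without a 3-month library, where 2 remain, and the highest without 2-week replicate 6. The miR-29 total ranged from 0.20 to 0.26, without the call in any of these 9, and the RNA calls from 41 to 557. Without a 3-month library the miR-29 call could not have been kept, because too few splits remain.

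Among the miRNAs named by the stated rule, signs turned only in uncalled members, listed here. Other uncalled miRNAs given above also turned below 0 after median-of-ratios rescaling, such as miR-21-3p (-0.15), miR-148a-3p (-0.05), miR-192-5p (-0.06) and miR-146a-5p (-0.05). miR-143-3p was at -0.042 after median-of-ratios rescaling, -0.045 per 1000000 reads other than miR-122-5p and -0.035 with rescaling and GC slope removal, where miR-142-5p was at -0.11. miR-27b-5p was at -0.083, -0.087 and -0.072 on those 3 scales and -0.14 with the replicate block, and ranged from -0.037 to 0.16 without 1 library. Both entries of miR-450b-3p were at -0.14, -0.15 and -0.059, at -0.00022 with a pseudocount of 10, and ranged from -0.060 to 0.087 without 1 library, as miR-199a-3p did from -0.015 to 0.39.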
